A study of Mus musculus with 4 samples.

Results

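Among the immune cells of mouse tumors profiled here, 834 of 15752 kept cell barcodes were Chil3 and Hp monocytes: Lyz2-positive, Cd3e-negative cells with little C1q that carried transcripts of Chil3 or Hp. A barcode was kept with at least 1000 UMIs, at least 200 detected genes and at most 10% of its UMIs from mitochondrially encoded genes. UMIs are unique molecular identifiers, so each count stands for 1 captured transcript. A kept barcode was a member when its raw UMIs held at least 5 of Lyz2, 0 of Cd3e, under 10 of C1qa, C1qb and C1qc together, under 20 of the interferon-induced genes Ifit2, Ifit3, Rsad2 and Cxcl10 together, and at least 5 of Chil3 and Hp together. The 4 libraries, 1 per group, gave 159 members in Ac, 276 in C, 330 in aC+C and 69 in IgG.

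The groups carry the names Ac, C, aC+C and IgG in the sample titles, and the labels do not spell out what was given in Ac, C or aC+C. All 4 share the other labels: mice of 6 to 8 weeks, single-cell RNA-seq with droplet-based 3-prime v2 reagents, and a capture aim of about 5000 cells per sample. The labels disagree on the material. The titles name tumor-infiltrating immune cells and the series title names CD8 T cells, while the cell type field and the extraction protocol name goblet cells of RedMUC298trTg mice. In the members, the summed goblet and epithelial marker list stood at 0 CPM in Ac, 1.66 in C, 0.318 in aC+C and 0 in IgG. CPM gives a gene's share of a class, as its UMIs in each 1000000 that all cells of the class held in a library. Mouse tumor model, tumor site and number of pooled animals are not given in the labels. With 1 library per group there is no replicate and no test: the 95% intervals given below cover counting error only, and differences between libraries cannot be told apart from differences between animals, dissociations or captures.

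Classical monocytes are made in the bone marrow, circulate in blood and enter inflamed tissue and tumors through the chemokine receptor Ccr2. In mice they carry high surface Ly6C, and in tissue they lose monocyte genes and take on those of macrophages or antigen-presenting cells. Tumor macrophages derived from them commonly make the complement subunits C1qa, C1qb and C1qc, apolipoprotein E and MHC class II molecules. Chil3 encodes the secreted chitinase-like protein Ym1, and Hp encodes haptoglobin, the plasma protein that captures free hemoglobin.

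The gate fixed Chil3 and Hp, so their values in the members describe the choice and are no finding. The median member held 19 Chil3 UMIs in Ac, 15.5 in C, 18 in aC+C and 12 in IgG. Hp was sparser, at a median of 3 UMIs in Ac, 2 in C, 4 in aC+C and 2 in IgG. Both genes were present in 69.2% of members in Ac, 62.0% in C, 78.2% in aC+C and 53.6% in IgG. Just inside the limit, with 5 or 6 UMIs of the pair, lay 13 members in Ac, 23 in C, 28 in aC+C and 11 in IgG. Just outside it, with 3 or 4 UMIs, lay 20 barcodes in Ac, 30 in C, 24 in aC+C and 16 in IgG. The C1q sum was 0 in most members, and its median was 0 in every library. The near-identical paralog Chil4 had 0 CPM in members of all 4 libraries.

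The marker genes Chil3, Ifitm6 and Ly6c2 are shown by the 250 bases before their annotated starts. They are the 3 of the 5 markers that the promoter table matched. The windows come from the RefSeq promoter table on build GRCm38.p6, all on the minus strand: Chil3 at chr3:106167565-106167814, Ifitm6 at chr7:141016893-141017142 and the first of 2 windows of Ly6c2 at chr15:75111972-75112221. Capitals mark each match, on either strand, to AGGAAGT, a core recognised by PU.1, the transcription factor encoded by Spi1 that myeloid cells depend on.
Chil3: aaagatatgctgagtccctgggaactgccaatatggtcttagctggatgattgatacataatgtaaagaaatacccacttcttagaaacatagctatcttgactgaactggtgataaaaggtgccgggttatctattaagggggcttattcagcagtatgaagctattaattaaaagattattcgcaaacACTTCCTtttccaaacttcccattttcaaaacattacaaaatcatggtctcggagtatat
Ifitm6: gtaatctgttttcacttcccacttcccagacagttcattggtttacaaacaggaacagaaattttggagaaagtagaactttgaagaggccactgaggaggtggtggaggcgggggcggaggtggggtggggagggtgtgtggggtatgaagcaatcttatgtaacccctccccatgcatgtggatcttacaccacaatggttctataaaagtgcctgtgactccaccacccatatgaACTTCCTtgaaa
Ly6c2: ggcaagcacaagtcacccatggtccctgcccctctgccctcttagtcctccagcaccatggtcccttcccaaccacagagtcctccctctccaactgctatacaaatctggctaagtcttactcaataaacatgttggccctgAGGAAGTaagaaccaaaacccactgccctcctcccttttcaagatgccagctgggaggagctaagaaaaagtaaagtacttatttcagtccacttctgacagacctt
The match lay 60 bases before the start of Chil3, 12 before that of Ifitm6 and 107 before that of Ly6c2. The same 7 letters were in 7.69% of all 32851 promoter windows. By gene, 6 of 15 classical monocyte genes with a window held them, as did 6 of 18 C1q macrophage genes, against 8.80% of all 27025 genes. The motif was chosen after the data were seen, and a match is a description of letters, not of binding.

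The other markers of the class were not used by the gate. Ifitm6, a member of the interferon-induced transmembrane family, was at 270 CPM in Ac, 188 in C, 389 in aC+C and 208 in IgG. The C1q-high macrophages, defined by 10 or more C1q UMIs and numbering 589, 563, 601 and 252 in the same order of libraries, held 5.57, 8.50, 16.5 and 12.8 CPM of Ifitm6. The monocytes thus stood 16.3 to 48.4 times above the macrophages. Ly6c2, which encodes the classical monocyte antigen Ly6C, was at 1523 CPM in Ac, 1430 in C, 1930 in aC+C and 1423 in IgG, between 3.59 and 8.35 times the macrophage level. Reads of Ly6c2 may be shared with its close paralog Ly6c1, and CD8 T cells make Ly6C as well: barcodes with 2 or more Cd3e UMIs held 820, 342, 576 and 443 CPM of Ly6c2. Thbs1, encoding the matricellular protein thrombospondin 1, was at 1985 CPM in Ac, 1307 in C, 1634 in aC+C and 2034 in IgG. Its macrophage levels were 844, 501, 820 and 723 CPM, and its ratio ran from 1.99 to 2.82, so Thbs1 separated the classes least.

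**Figure D1:**
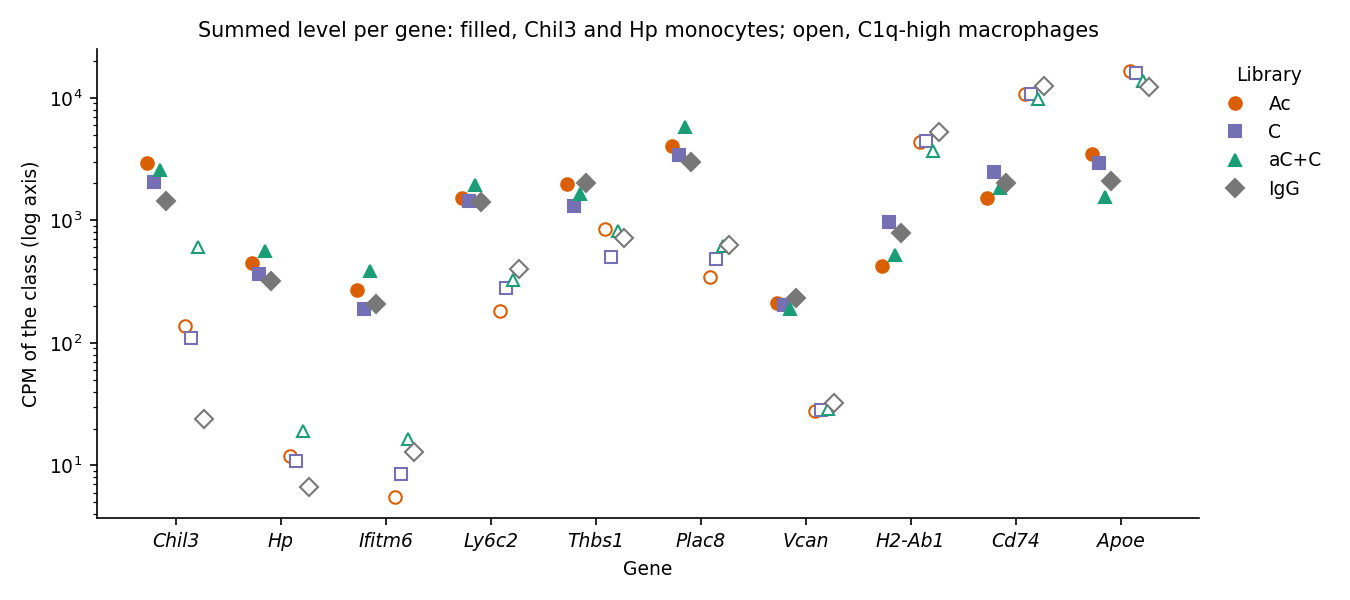
Summed CPM (log axis) of 10 genes in Chil3 and Hp monocytes (filled points) and in C1q-high macrophages (open points), with 1 point per library. Chil3 and Hp were used to choose the cells. Ifitm6, Ly6c2, Plac8 and Vcan are higher in the monocytes of every library, while H2-Ab1, Cd74 and Apoe are lower.

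Set against the C1q-high macrophages, the monocytes carried a blood-monocyte profile in all 4 libraries. Of 5086 genes with at least 100 UMIs over both classes in each library, 48 were at least 2 times higher in 4 of 4 libraries, which is 0.944%, and 143 were at least 2 times lower in 4 of 4, which is 2.81%. The classes are 2 sides of one gate, so these are descriptions without a test. The macrophages held more UMIs in every library, such as 9870955 against 1583360 in Ac and 3449491 against 876885 in IgG. A gene made only by macrophages therefore reached the minimum at a lower CPM than a gene made only by monocytes. The higher and lower counts thus cannot be set against each other. Of 18 measured classical monocyte genes, 10 were higher in every library, among them Ly6c2, Ifitm6, Plac8, F13a1, Vcan, Gsr, Mgst1, S100a4 and Emilin2. None of the 18 was lower by that measure.

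Plac8, a small cysteine-rich protein gene abundant in myeloid cells, was at 4017 CPM in Ac, 3440 in C, 5792 in aC+C and 2994 in IgG, from 4.76 to 11.7 times the macrophage level. Vcan, encoding the proteoglycan versican, was at 212 CPM in Ac, 204 in C, 189 in aC+C and 234 in IgG, or 6.57 to 7.59 times the macrophage level. Gsr, glutathione reductase, was 5.36 to 10.1 times and Mgst1, a microsomal glutathione transferase, 3.35 to 6.13 times as high in monocytes.

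F13a1, the catalytic subunit of clotting factor XIII, was 2.15 to 4.63 times as high in monocytes. S100a4, a calcium-binding protein gene, was at 2334, 1527, 1945 and 2687 CPM in monocytes and 3.31 to 4.98 times the macrophage level. Slpi, a secreted inhibitor of neutrophil proteases, showed the widest spread: 306, 224, 189 and 185 CPM in monocytes against 54.2, 5.89, 20.6 and 1.45 in macrophages. The C-type lectin sensor gene Clec4e held nearly the same ratio everywhere, 3.8 to 4.0. Among further listed genes, the cytokine Osm, the transcription factor Cebpb, the integrin chain Itgb7, the hyaluronan receptor Cd44 and Anxa2 were also at least 2 times higher in 4 of 4 libraries. The orphan receptor gene Gpr141 was 3.72 to 6.20 times as high.

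The macrophage side of the profile was low in the monocytes relative to the C1q-high macrophages. Of 21 measured C1q macrophage genes, 17 were at least 2 times lower in every library, and so were 6 of 7 MHC class II genes. Apoe, apolipoprotein E, was at 3489 CPM in Ac, 2942 in C, 1541 in aC+C and 2104 in IgG monocytes, against 16676, 15834, 13600 and 12280 CPM in macrophages. Cd74, the class II invariant chain, was at 1511, 2474, 1828 and 2007 CPM in monocytes against 10778, 10821, 9724 and 12458 in macrophages. Mrc1, the mannose receptor, stood at 0.0623 to 0.103 of the macrophage level. Gas6, a ligand of the Axl and Mertk receptors, had 0 CPM in monocytes of all 4 libraries and 39.1, 29.8, 36.5 and 55.1 CPM in macrophages. Retnla, Ccl8, Folr2, Mgl2, Itga9, Hpgds, Fcrls, Cd72 and Pf4 completed the 10 lowest genes, each at 0.0766 of the macrophage level or less.

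Several genes of tumor myeloid cells did not separate the classes by that margin. Il1b, encoding the cytokine interleukin 1 beta, was 1.40 to 1.52 times as high in monocytes, and Cd14, the lipopolysaccharide co-receptor, 1.30 to 1.43 times. Ccr2 itself was 1.16 to 2.66 times as high, passing 2 in 2 of 4 libraries. Arg1, arginase 1, was lower in the monocytes of every library, at 0.233 to 0.476 of the macrophage level. None of the 17 measured type I interferon genes outside the gate passed 2 in every library in either direction, though the gate itself removed cells with high Ifit2, Ifit3, Rsad2 and Cxcl10.

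**Figure D2:**
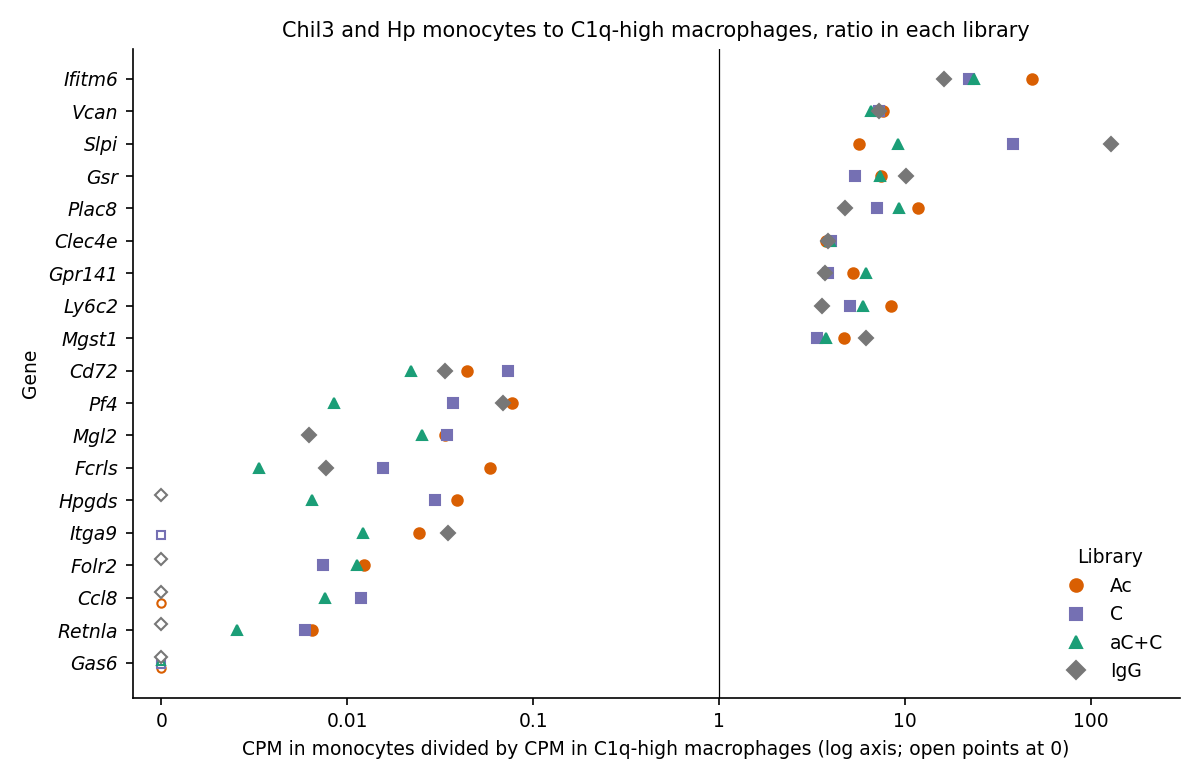
Ratio of CPM in Chil3 and Hp monocytes to CPM in C1q-high macrophages (log axis) for genes with the highest ratios and the 10 with the lowest, with 1 point per library; open points at the left edge are libraries with 0 UMIs in monocytes. Genes are ordered by their lowest ratio, which puts Ifitm6 first and Vcan next, and Gas6 is at 0 in all 4 libraries.

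The share of monocytes differed between the libraries. They made up 3.95% of kept barcodes in Ac (interval 3.37 to 4.60), 6.56% in C (5.83 to 7.35), 8.09% in aC+C (7.27 to 8.97) and 2.01% in IgG (1.57 to 2.53). No pair of these intervals overlapped except that C and aC+C touched between 7.27 and 7.35%. Over all Lyz2-positive, Cd3e-negative barcodes the shares were 15.4% in Ac (13.2 to 17.7), 22.9% in C (20.5 to 25.3), 23.6% in aC+C (21.4 to 25.9) and 13.2% in IgG (10.4 to 16.4). On this scale Ac and IgG overlapped, as did C and aC+C, and each of the first pair lay below each of the second. The myeloid gate as a whole held 25.7, 28.7, 34.3 and 15.3% of kept barcodes, and barcodes with 2 or more Cd3e UMIs held 43.0, 34.8, 33.4 and 50.5%. A share cannot tell more monocytes from fewer other cells, and in droplet captures it also depends on how the suspension was prepared.

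**Figure D3:**
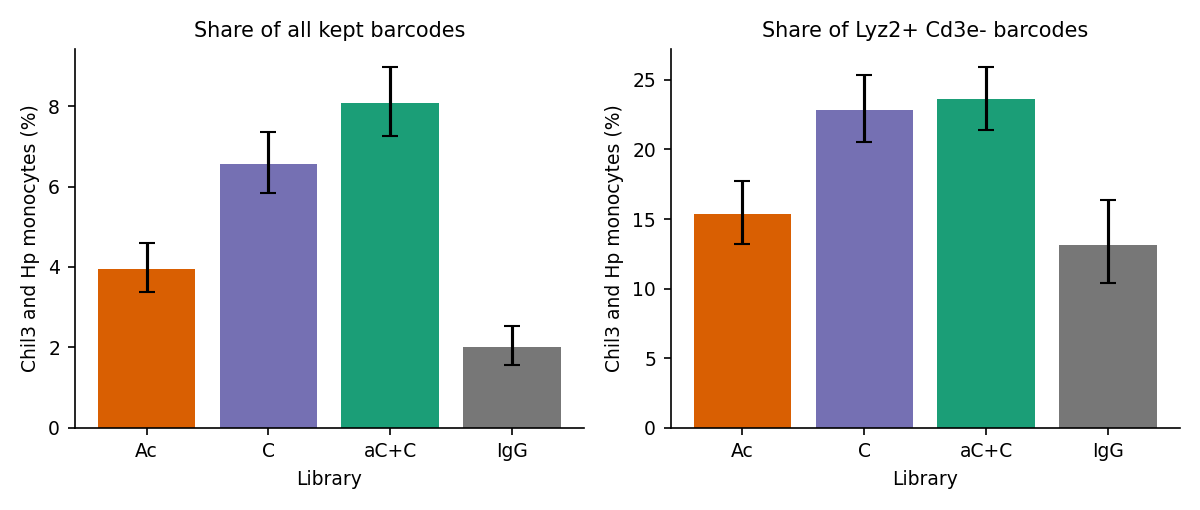
Chil3 and Hp monocytes as a percentage of all kept barcodes (left) and of Lyz2-positive, Cd3e-negative barcodes (right) in each library; bars start at 0 and error bars are exact Clopper-Pearson 95% intervals for counting error. The highest bar on both scales is aC+C (8.09% and 23.6%) and the lowest is IgG (2.01% and 13.2%).

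Neighbouring classes help to place the gate. C1q-low Lyz2-positive cells with under 5 UMIs of Chil3 plus Hp numbered 137, 181, 197 and 132, and their Ly6c2 level was 893, 1034, 732 and 922 CPM. Their C1q macrophage list summed to 10778, 10905, 6795 and 7688 CPM. It summed to 7363, 7071, 4851 and 6091 in the monocytes and 28620, 26992, 25900 and 22381 in C1q-high macrophages. Low values of this list were thus shared by both C1q-low classes. In the cells with under 5 UMIs of the pair, the class II list stood at 24537, 15388, 15998 and 26350 CPM. In the monocytes it stood at 3016, 5361, 3572 and 4351. The classical monocyte list of those cells summed to 13968.5, 14408, 14690 and 14163 CPM. It summed to 22562, 19346, 23520 and 22768 in the monocytes and to 8687, 8669, 8735 and 9704 in C1q-high macrophages. Cells that met every rule except the interferon limit numbered 32, 56, 68 and 16, and they held 3826, 1302, 2087 and 3236 CPM of Ly6c2. Among C1q-high macrophages, 9.0% in Ac (6.81 to 11.6), 10.3% in C (7.92 to 13.1), 12.3% in aC+C (9.79 to 15.2) and 1.98% in IgG (0.647 to 4.57) also had 5 or more UMIs of Chil3 plus Hp. With every cell thinned at random to 5000 UMIs the shares were 3.48, 5.08 and 7.08% in Ac, C and aC+C, and 0 of 226 in IgG. In the aC+C macrophages 56.5% of 5975 Chil3 UMIs came from 2 cells, so their summed Chil3 level describes few cells. Chil3 was also found in free RNA: barcodes of 1 to 50 UMIs held 124, 181, 318 and 92.1 CPM of it.

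With each cell thinned to 1000 UMIs, Chil3 was detected in 73.0% of monocytes in Ac, 69.6% in C, 75.5% in aC+C and 69.6% in IgG. The share in Cd3e-positive barcodes, which should lack it, was 0.347 to 2.73% over the 4 libraries. Ifitm6 was detected in 20.1% of monocytes in Ac, 22.1% in C, 29.1% in aC+C and 26.1% in IgG, and in at most 0.518% of Cd3e-positive barcodes. Before thinning, the median monocyte had 8531 UMIs in Ac, 7722.5 in C, 8688.5 in aC+C and 9520 in IgG.

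The monocytes were not uniform. Cells were thinned to 5000 UMIs, and members with fewer UMIs or with transcripts of other lineages were left out, which left 145 in Ac, 207 in C, 284 in aC+C and 57 in IgG. At this depth Ifitm6 was present in 53.1% of them in Ac (44.6 to 61.4), 48.3% in C (41.3 to 55.3), 69.0% in aC+C (63.3 to 74.3) and 57.9% in IgG (44.1 to 70.9). The aC+C interval lay above that of Ac and of C and overlapped that of IgG. Monocytes with Ifitm6 were set against those without it inside each library, a split chosen after the data were seen. Of 4056 genes with at least 100 UMIs summed over the 4 libraries, 34 were at least 2 times higher in 4 of 4 libraries, which is 0.838%, and 60 at least 2 times lower in 4 of 4, which is 1.48%. In IgG only 24 cells lacked Ifitm6, so some of its ratios rest on few UMIs.

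Some genes of circulating monocytes were higher in cells with Ifitm6 and others lower: of 18 measured classical monocyte genes, 3 passed 2 upward in all libraries, 10 were above 1 in all and 4 were below 1 in all. F13a1 was 2.64 to 3.77 times and Gsr 2.03 to 2.71 times as high with Ifitm6. The inhibitory receptor gene Cd300a was 2.84 to 5.42 times as high, the leukocyte actin-binding protein gene Lsp1 2.39 to 3.12 times, and Anxa1, annexin A1, 2.34 to 3.28 times. Rasgrp2, an activator of the small GTPase Rap1, was 2.95 to 7.70 times as high, with a mean of only 0.125 UMIs in the 24 IgG cells without Ifitm6.

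Cells without Ifitm6 held more of the macrophage and antigen-presentation genes, although the gate kept their C1q low. Arg1 averaged 0.364 UMIs per cell with Ifitm6 in Ac, 1.11 in C, 0.638 in aC+C and 0.212 in IgG, against 10.9, 7.29, 6.88 and 7.54 without it. The values with and without Ifitm6 did not overlap between any libraries. Spp1, encoding osteopontin, was at 0.0373 to 0.0690 of the level without Ifitm6. H2-Ab1, a class II chain, averaged 0.818, 1.73, 0.939 and 1.52 UMIs with Ifitm6 against 3.53, 8.80, 7.36 and 8.88 without it. All 6 measured class II genes were below 1 in 4 of 4 libraries, and 4 of them, H2-Aa, H2-Ab1, H2-Eb1 and Cd74, were past 2.

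Of 15 C1q macrophage genes, 5 were at least 2 times lower with Ifitm6 in all libraries: Trem2, Cd63, Spp1, Ctsd and Axl. Of 18 glycolysis and hypoxia genes, 15 were below 1 in all libraries and 4 past 2, namely Tpi1, Bnip3, Hilpda and Ero1l. The chemokine gene Ccl24 and the elastase gene Mmp12 were also among the lowest, at no more than 0.0882 and 0.0736 of the level without Ifitm6. Bcl2a1b, a survival factor of the Bcl2 family, was at 0.103 to 0.132, with the limit that its copies Bcl2a1a and Bcl2a1d share reads with it. For comparison, 719 of the 4056 genes were above 1 and 665 below 1 in all 4 libraries.

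**Figure D4:**
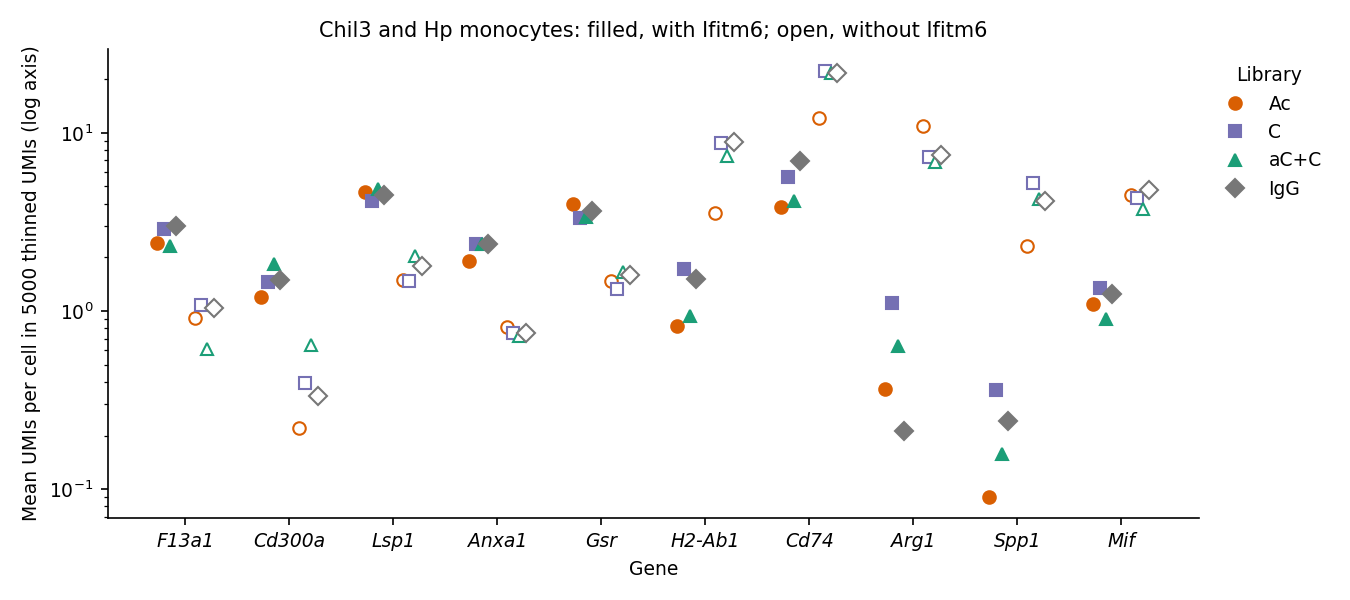
Mean UMIs per cell (log axis) of 10 genes in Chil3 and Hp monocytes with Ifitm6 (filled) and without it (open), after thinning each cell to 5000 UMIs; 1 point per library. The 5 genes on the left are higher with Ifitm6 in all 4 libraries, and the 5 on the right, from H2-Ab1 to Mif, are lower.

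Rank correlations across the same thinned cells describe the same axis. They share library and depth, and no p is attached to them. Spearman's rho between Ifitm6 and Arg1 was -0.58 over 145 cells in Ac, -0.47 over 207 in C, -0.47 over 284 in aC+C and -0.67 over 57 in IgG. Between Ifitm6 and the class II sum it was -0.51, -0.38, -0.38 and -0.38, and between Ifitm6 and Gsr 0.56, 0.44, 0.36 and 0.46. Ccr2 ran weakly against Ifitm6, at -0.21, -0.12, -0.20 and -0.05, as did Fn1, at -0.16, -0.21, -0.13 and -0.24, and Ly6c2 was near 0 or weakly positive, at 0.015, 0.10, 0.071 and 0.20. Hp followed Ifitm6, at 0.60, 0.53, 0.43 and 0.62, but Hp is a gene of the gate. Chil3, also a gene of the gate, did not follow Ifitm6, at 0.15, -0.0053, 0.019 and -0.13. Nor did Chil3 follow Hp, at 0.077, -0.025, 0.030 and -0.30. Thbs1 was near 0 or weakly positive with Ifitm6, at -0.035, 0.034, 0.12 and 0.038, so the markers of the class did not share 1 axis. Plac8 and Fn1, the gene of the matrix protein fibronectin, ran opposite ways, at -0.45, -0.44, -0.45 and -0.58.

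A smaller set of cells carried some of 12 listed genes of non-classical monocytes, the patrolling Ly6C-low subset. Of 4 listed genes measured against the macrophages, 0 were at least 2 times higher in every library. At least 3 UMIs of Ace, Treml4, Adgre4 and Spn together were in 8.97% of thinned members in Ac (4.86 to 14.8), 3.86% in C (1.68 to 7.47), 16.9% in aC+C (12.7 to 21.8) and 5.26% in IgG (1.10 to 14.6). The aC+C interval lay above that of C and overlapped those of Ac and IgG. Ace, encoding angiotensin-converting enzyme, was at 38.5 CPM in Ac, 13.3 in C, 71.0 in aC+C and 33.1 in IgG. Class II UMIs of 20 or more were in 15.2, 25.1, 19.7 and 21.1% of cells, with overlapping intervals. No thinned member without other-lineage transcripts held 3 or more UMIs of the proliferation genes Mki67, Top2a, Cdk1, Birc5 and Rrm2 together. The upper exact limits of 2.51% in Ac, 1.77% in C, 1.29% in aC+C and 6.27% in IgG hold for cells that reach this cut at 5000 UMIs and do not limit the share of cells that express these genes.

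Comparisons of expression between libraries rest on few barcodes. A barcode of more than 3 times the class median UMIs was found in 2 members in Ac, 18 in C, 4 in aC+C and 4 in IgG, and these held 13.1, 29.5, 9.50 and 28.0% of the class UMIs. All 28 also held 3 or more UMIs of T, NK, B or fibroblast and tumor-like genes, summed over 29 genes. The limit was not scaled to depth, so barcodes with many UMIs reach it more easily. Free RNA held such transcripts too, with Cd3g at 656 CPM in Ac, 490 in C, 513 in aC+C and 681 in IgG. Leaving members out by this limit is thus partly a cut on depth, and whether they mix cell types was not tested. In all, 6 members in Ac, 40 in C, 16 in aC+C and 9 in IgG met that limit. The fibroblast and tumor-like list summed to 501, 1024, 303 and 1682 CPM in members and the NK list to 417, 1009, 256 and 1123, while the T cell list stood at 20.2, 91.8, 59.2 and 70.7. The ratios that change most are therefore given for all members and again without the members holding other-lineage transcripts, which left 153, 236, 314 and 60. Libraries shared 2 to 7 kept barcode sequences per pair, and 1 member sequence was shared, between Ac and IgG.

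Relative to IgG, few genes passed 2 in either direction. The Ac monocytes had 29 of 3374 genes at a ratio of 2 or more (0.86%) and 32 at 0.5 or less (0.948%). The C monocytes had 43 of 4701 above (0.915%) and 23 below by the same margins (0.489%). The aC+C monocytes had 63 of 4585 above (1.37%) and 84 below (1.83%). Without the members holding other-lineage transcripts Ac had 11 higher and 5 lower genes, C had 27 and 18, and aC+C had 47 and 26. Of these, 5 and 0, 14 and 7, and 24 and 11 were genes also counted over all members. All 3 comparisons share the IgG library, the smallest with 69 members, so their values are given side by side and not as independent results.

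Among chemokines, Cxcl2, which attracts neutrophils, stood above IgG in each library. It was at 2658 CPM in Ac, 2238 CPM in C and 3113 CPM in aC+C, against 1006 CPM in IgG. The ratios were 2.64 in Ac (2.46 to 2.84), 2.22 in C (2.07 to 2.39) and 3.10 in aC+C (2.89 to 3.32), and without the members holding other-lineage transcripts 1.96, 2.04 and 2.18. In C1q-high macrophages the same ratios were 1.37, 0.801 and 1.39, and in free RNA 2.40, 1.79 and 2.61. With each cell weighted alike after thinning to 1000 UMIs, Cxcl2 was detected in 56.6, 51.1 and 54.8% of monocytes in Ac, C and aC+C, against 36.2% in IgG. Its paralog Cxcl1 was at 54.3 CPM in Ac, 83.5 CPM in C and 117 CPM in aC+C, against 28.5 CPM in IgG, but Cxcl1 was detected in at most 3.64% of thinned monocytes of any library.

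The list of inflammatory cytokines and chemokines includes Cxcl1 and Cxcl2. Over all members, Ac had 10 of 14 measured genes above the IgG level, C had 5 of 16, and aC+C had 15 of 18. The share of all genes above 1 is not given here, so these counts lack a baseline. Ccl2, the Ccr2 ligand, was at 446 CPM in Ac, 731 CPM in C and 936 CPM in aC+C, against 861 CPM in IgG. Ccl4, which attracts lymphocytes and monocytes, was at 258, 102 and 173 CPM against 265 in IgG, and its C ratio of 0.387 was 0.422 without the members holding other-lineage transcripts. Il1b was 1.57, 0.914 and 1.29 times the IgG level, and 1.14, 0.851 and 0.915 times without those members. Of 14, 16 and 18 measured genes on this list, 2, 2 and 4 were past 2 upward, with a median ratio of 1.26, 0.873 and 1.26. Over all genes 0.86, 0.915 and 1.37% were past 2 upward, and the medians were 1.04, 1.01 and 1.01. Without the members holding other-lineage transcripts the list's medians were 0.916, 0.763 and 0.915, and 0, 2 and 2 genes were past 2 upward. The medians over all genes are for all members, so they are no baseline for these values.

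The MHC class II chains H2-Ab1 and H2-Eb1 were lowest in Ac. H2-Ab1 was at 424 CPM in Ac, 965 CPM in C and 517 CPM in aC+C, against 783 CPM in IgG. H2-Eb1 followed at 244, 597 and 270 against 462. The Ac ratios were 0.541 (0.486 to 0.603) for H2-Ab1 and 0.528 (0.458 to 0.608) for H2-Eb1. Without the members holding other-lineage transcripts they were 0.411 and 0.427, and both genes then passed 2 downward. Of 6 measured class II genes 0 passed 2 over all members in any comparison with IgG, while in aC+C against C 1 did, H2-Eb1 at 0.452. Relative to IgG the median ratio was 0.688 for Ac, 1.23 for C and 0.797 for aC+C, and 0.539, 1.29 and 0.654 without those members. All 6 were above 1 in C, a count given without the share of all genes above 1. In macrophages H2-Ab1 was 0.833, 0.850 and 0.699 times the IgG level.

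Macrophage-associated genes differed among the libraries without a common direction. Apoe was 1.66 times the IgG level in Ac (1.57 to 1.75), 1.40 in C (1.33 to 1.47) and 0.733 in aC+C (0.694 to 0.773), and the macrophage ratios were 1.36, 1.29 and 1.11. Ms4a7 is a tetraspan membrane protein gene of macrophages. It was at 54.9 CPM in Ac, 44.1 CPM in C and 15.3 CPM in aC+C, against 19.4 CPM in IgG. Free RNA held 5191, 4291 and 3949 CPM of Apoe in Ac, C and aC+C, against 2070 in IgG. For Ms4a7 it held 134, 103 and 108 CPM against 42.3. How far free RNA carries the differences of these 2 genes in the monocytes was not tested. Fn1 was at 1843, 1515 and 1231 CPM against 2162, and the aC+C ratio of 0.569 was 0.467 without the members holding other-lineage transcripts. Vegfa, the angiogenic growth factor gene, was at 394, 248 and 202 CPM against 365.

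Few classical monocyte genes passed 2 between libraries. Of 19 measured, 1, 0 and 0 were past 2 upward and 0 past 2 downward in Ac, C and aC+C, with median ratios of 1.16, 0.904 and 1.19; without the members holding other-lineage transcripts the medians were 0.958, 0.899 and 0.957. The 1 gene past 2 in Ac was Cd177, a surface glycoprotein of neutrophils and some monocytes, at 97.3 CPM against 45.6 in IgG, with a ratio of 1.60 without those members. Plac8 was 1.93 times the IgG level in aC+C (1.86 to 2.02) and 1.49 times without them. S100a4 was below IgG throughout, at 0.869, 0.569 and 0.724 times its level, and at 0.846, 0.545 and 0.692 without them.

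Of 15 measured immediate early genes, 11 were below and 4 above the IgG level in aC+C, with 3 past 2 downward and a median ratio of 0.798. Over all genes 1.83% were past 2 downward in aC+C. Without the members holding other-lineage transcripts 12 of the 15 were below, 0 were past 2 downward, 1 was past 2 upward and the list's median was 0.880. Of all 3892 genes, 26 were then past 2 downward and 47 upward. The share of all genes below IgG is not given here, so the counts of 11 and 12 lack a baseline. The activity-induced genes Egr2, Nr4a3 and Nr4a2, named for their ratios, are not on that list. Egr2 was at 17.8 CPM in aC+C and 22.2 in C against 62.7 in IgG, and the ratios of 0.284 in aC+C and 0.354 in C were 0.307 and 0.491 without the members holding other-lineage transcripts. Nr4a3, an orphan nuclear receptor gene, was at 49.4 CPM in aC+C and 46.1 in C against 120 in IgG. Its ratios of 0.412 and 0.385 were 0.299 and 0.266 without those members. Nr4a2 was at 171 CPM in aC+C against 392 in IgG. Egr1 shows how far few barcodes can carry a value: its ratio was 0.355 in Ac and 0.288 in aC+C over all members, and 1.64 and 1.01 without those holding other-lineage transcripts.

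**Figure D5:**
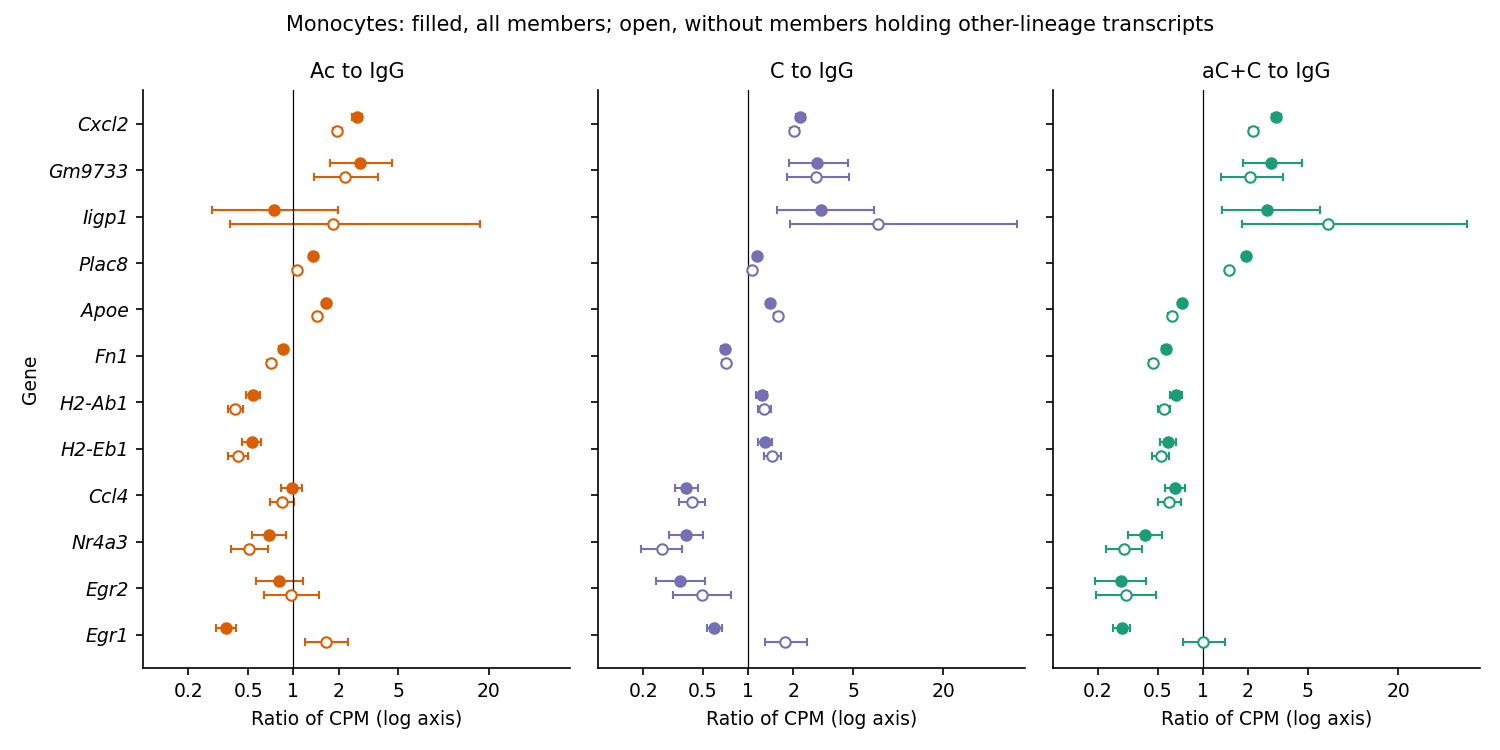
Ratio of CPM in monocytes of Ac, C and aC+C to CPM in monocytes of IgG (log axis) for 12 genes, over all members (filled) and without members holding other-lineage transcripts (open); bars are 95% counting intervals and there is 1 library per group. Cxcl2 lies right of 1 in all 3 panels, and Egr1 crosses or reaches 1 once those members are left out.

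Interferon-gamma-induced genes were near or above the IgG level in aC+C. Of 15 measured, 14 were above 1 with a median ratio of 1.38 and 0 past 2, where 1.37% of all genes were past 2 upward. Without the members holding other-lineage transcripts 11 of 15 were above 1 at a median of 1.23. The share of all genes above 1 is not given here, so the counts of 14 and 11 lack a baseline. In Ac the list's median was 0.982 and in C 1.14. Iigp1, an interferon-inducible GTPase, was at 31.5 CPM in C against 10.3 in IgG, a ratio of 3.07 (1.55 to 6.92) from 95 and 9 UMIs, and of 7.30 without those members. Gbp2, a guanylate-binding protein gene, was at 310 CPM in Ac, 264 CPM in C and 396 CPM in aC+C against 232 CPM in IgG. Without those members its ratios were 0.926, 1.11 and 1.33. Free RNA held 130, 184 and 359 CPM of Gbp2 in Ac, C and aC+C against 99.6 in IgG. For Iigp1 it held 50.8, 63.0 and 123 CPM against 39.4. How far free RNA carries the differences of these 2 genes in the monocytes was not tested. Type I interferon genes outside the gate had median ratios of 1.09, 0.934 and 1.09 with 0 past 2. Without the members holding other-lineage transcripts the medians were 0.991, 0.936 and 0.960, again with 0 past 2. For its interferon limit alone the gate left out 32 cells in Ac, 56 in C, 68 in aC+C and 16 in IgG. The type I ratios thus cannot show differences carried by the cells left out.

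Neutrophil granule transcripts in the members came from few barcodes. Among members with over 100 UMIs of S100a8 and S100a9, these numbered 353 in 1 Ac member, 866 and 1809 in 2 C members and 5262, 567 and 143 in 3 aC+C members. The aC+C barcode with 5262 of them also held 598 Camp and 778 Ngp UMIs. S100a8 was at 117 CPM in Ac, 438 CPM in C and 946 CPM in aC+C, against 3.42 CPM in IgG. In Ac, C and aC+C, 61.8, 62.8 and 81.5% of the UMIs of the neutrophil list came from 1 cell. At least 3 UMIs of the 7 neutrophil genes Cxcr2, Retnlg, Ly6g, Mmp8, Camp, Ngp and Ltf were in 11 members in Ac, 15 in C, 20 in aC+C and 3 in IgG. G0s2, on the neutrophil list, had 231 UMIs in aC+C and 1 in IgG, with 17.7% of the aC+C count in 1 cell. The granule protease gene Prtn3 was at 35.4 CPM in aC+C against 9.12 in IgG, a ratio of 3.87 (1.90 to 9.20), with no more than 4.50% of its aC+C UMIs in 1 cell.

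The remaining genes with the widest ratios were of mixed function. In Ac, Dlgap4, Zc3h12a, Adora2b, Havcr2, Ntpcr and Gm9733 were 2.29 to 2.77 times the IgG level. Zc3h12a encodes the RNase Regnase-1 that trims inflammatory mRNAs, Adora2b an adenosine receptor and Havcr2 the inhibitory receptor Tim-3. Gm9733 was 2.87 times the IgG level in C and in aC+C as well. Without the members holding other-lineage transcripts, Zc3h12a, Havcr2 and Gm9733 still counted as higher in Ac, while Dlgap4, Adora2b and Ntpcr did not. A gene did not count when its ratio was inside 2 or when fewer than 100 UMIs were left. Below IgG in Ac lay Polr2l (0.476), Lta4h (0.513), 2310009B15Rik (0.533), Vps37b (0.544) and Nudt4 (0.554); Nudt4 was at 1.10 without the members holding other-lineage transcripts. In C, Tceal8, Rit1 and Nol12 were 2.81 to 3.38 times the IgG level, and Tob1, Rnaset2a, Stap1, Mylip and Thbd were 0.419 to 0.468 of it. In aC+C, Tmem71 (5.59), Irg1 (2.84) and Serpinb10 (2.83) were higher, while Gm26532 (0.388), Tuba1b (0.448), Hjurp (0.456), Rps6kb1 (0.457) and Txnip (0.459) were lower. Irg1 encodes the enzyme that makes itaconate in activated myeloid cells. Gm10076 was 2.90 times the IgG level in C, but also 2.81 times in macrophages and 2.58 times in free RNA, so its difference was present in the whole library. Without the members holding other-lineage transcripts, Polr2l no longer counted as lower in Ac. In C, Gm9733, Gm10076, Tob1 and Stap1 still counted, while Tceal8, Rit1, Nol12, Rnaset2a, Mylip and Thbd did not. In aC+C, Gm9733, Irg1, Gm26532, Rps6kb1 and Txnip still counted, while Tmem71, Serpinb10, Tuba1b and Hjurp did not.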

How the data were processed

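Single-cell RNA-seq libraries of 4 mouse samples, 1 per group, were analysed from the deposited matrices. The authors' deposited values are raw UMI counts per gene and barcode; Cell Ranger 2.1.1 and mm10 are given per the submitters' processing notes, and the matrix headers give software version 3.0.2. Library totals were 65973242 UMIs in Ac, 75665201 in C, 75067320 in aC+C and 61519049 in IgG.

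Barcodes were filtered and gated as the report states, and counts were summed per class and library with python 3.11.15, numpy 2.4.6, scipy 1.17.1 and pandas 2.3.3. Levels carry exact Poisson intervals, ratios exact conditional binomial intervals and shares Clopper-Pearson intervals, all at 95% and for counting error only. A gene counted as higher or lower at a ratio of at least 2 or at most 0.5 with at least 100 UMIs over both sides; gate genes were left out of the comparison with macrophages. No test across samples was possible. Named genes were the 5 markers, the 8 highest and 8 lowest ratios to IgG whose interval excluded 1 and with under 25% of UMIs in 1 cell, the 10 highest and 10 lowest against macrophages, and from each list the genes past 2 and up to 4 with most UMIs. Members and lists were chosen with earlier results of these data known. The Ifitm6 split, the promoter motif and the alternatives on very high UMIs and on the split were chosen after seeing the data. Doublets called by Scrublet in scanpy 1.11.5 were kept in the main values and removed in an alternative; 1 member in Ac, 13 in C, 3 in aC+C and 3 in IgG were called. On simulated data with a fold of 3, 100 of 100 higher genes were found in each comparison, and 100, 93 and 92 of 100 lower genes in Ac, C and aC+C, while 0, 3 and 5 unchanged genes of 3333, 4591 and 4674 simulated passed 2. A few genes that the rule names are not reported here.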

Additional observations from a re-analysis of the deposited data

Results flagged for a closer look

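Some genes of other cell types lay above the macrophages in the monocytes of one library and below them in another. The ratio of monocytes to C1q-high macrophages for Col3a1, a fibrillar collagen gene, was 0.268 in aC+C and 3.13 in IgG. For Sparc, a matrix protein gene, it was 0.497 in aC+C and 2.93 in IgG. For Gzma, the granzyme A gene of cytotoxic lymphocytes, it was 4.23 in Ac and 0.218 in aC+C. These differences were not tested, since each group has 1 library.

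Barcodes above the mitochondrial maximum of 10% were not used. Of these, 5 in Ac, 7 in C, 6 in aC+C and 1 in IgG met every other rule of the gate.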

How the results depend on the processing

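No paired analysis was possible because each group has 1 library. The order of the shares, highest in aC+C and lowest in IgG, was the same under every alternative that gave shares; at a minimum of 5000 UMIs the share was 7.39% in C and 9.23% in aC+C, with Chil3 plus Hp of at least 10 the Ac share was 3.08%, the C share 5.04%, the aC+C share 6.57% and the IgG share 1.37%, and without other-lineage transcripts 5.61% in C. Counts of genes moved more. At a minimum of 30 UMIs, Ac had 140 higher and 189 lower genes, C had 309 and 106, and aC+C had 226 and 409, where 104 were higher than in macrophages. At 300 UMIs they numbered 4 and 4, 6 and 3, and 21 and 25, and 25 and 71 against macrophages. With Chil3 plus Hp of at least 10, 16 were higher in Ac, 141 higher in C and 42 lower in aC+C. With the gate on 5000 thinned UMIs, 132 were higher in C, 16 lower in Ac and 38 lower in aC+C. At a mitochondrial maximum of 5%, 19 were lower in Ac and 40 in aC+C, and 51 were lower in Ac as a mean over cells. Without other-lineage transcripts, 11 were higher in Ac, 27 higher in C, 5 lower in Ac and 26 lower in aC+C. Without very high UMIs, 15 were higher in Ac, 28 in C and 75 against macrophages, while Ac had 7 lower, C 14 and aC+C 26. The Ifitm6 split gave 34 higher and 79 lower genes with at least 2 UMIs of Ifitm6, and 28 and 58 without neutrophil transcripts. The minimum of UMIs changes how many genes are counted; the cause of the other moves was not tested.

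Single ratios changed direction as follows. At 5% mitochondrial UMIs, Dcn in C was 1.12 and Tm4sf1 in aC+C 1.29 times IgG. With Chil3 plus Hp of at least 10, Dcn in C was 1.07, Tm4sf1 in aC+C 1.63 and Tm4sf1 to macrophages in IgG 0.792. With the gate on thinned UMIs, Cxcl3 in Ac was 0.584, Col3a1 in C 1.09, Dcn in C 1.14, Ube2c in C 5.62 and Adora2b in aC+C 0.996, and to macrophages in IgG Nudt4 was 0.930, Tm4sf1 0.728 and Ube2c 0.140. With doublets removed, Sparc to macrophages in aC+C was 1.65. Egr1 was 1.64 in Ac and 1.01 in aC+C without other-lineage transcripts, and 1.84 and 1.10 without very high UMIs, where Ube2c to macrophages in IgG was 0.267. As a mean over cells, Ube2c to macrophages in IgG was 0.627.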
